A study of Mus musculus with 2 samples.

Results

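The genes described here are those of the oxygen-sensing switch around the hypoxia-inducible factors (HIFs), namely the 3 alpha subunits Hif1a, Epas1 (HIF-2 alpha) and Hif3a, the beta subunit Arnt, the prolyl hydroxylases Egln1, Egln2 and Egln3, the ubiquitin ligase subunit Vhl, the asparaginyl hydroxylase Hif1an and the competitor Cited2. They were found by gene symbol among the probe sets, the groups of short array probes that each report 1 signal, and every probe set annotated with exactly 1 of these symbols was kept. This gave 18 probe sets of 9 of the 10 genes, out of 12393 genes with such a probe set. Hif1an had none and was not analysed here. RNA came from uterine stromal cells of pregnant mice, taken on day 5 (day 1 being the day of the vaginal plug) by digesting the uterine horns with enzymes and pooled over 3 animals for each genotype. Each pool was measured on 1 Affymetrix Mouse Genome 430A 2.0 array, so there were 2 arrays in all. The first group is titled as Hif1 floxed controls and is Hif2 alpha-intact in its genotype field. The second is titled as Hif1 conditional knockouts and is Hif2 alpha-null in its genotype field. The breeding note crosses Hif1 floxed mice with PRcre mice, in which Cre recombinase follows the progesterone receptor promoter and so is not limited to stroma, but names Rac1 as the gene ablated. Strain, age and whether the controls carried Cre are not given in the sources used here. Since the labels disagree on the target, the second array is called knockout-labelled throughout.

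With oxygen present, the EGLN enzymes hydroxylate prolines of the HIF alpha subunits, and the von Hippel-Lindau protein then marks the hydroxylated subunit for destruction by the proteasome. HIF1AN hydroxylates an asparagine and so keeps the coactivators p300 and CBP away, and CITED2 competes with HIF alpha for the same coactivators. When oxygen is short, the alpha subunits persist, pair with ARNT and bind promoters that hold the core ACGTG or GCGTG. Much of this control acts on protein, and the arrays measured RNA alone. In the uterus, HIFs are known for their part in decidualization and implantation, when stromal cells enlarge around the embryo.

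Since HIFs bind promoters that hold the core ACGTG or GCGTG, the 250 bases before the start of each gene were searched on both strands for these letters. The windows of 3 genes are printed, namely Hif1a, the gene with the highest ratio here, and of Egln1 and Egln3, hydroxylases known as HIF targets. They were taken from RefSeq (GRCm38.p6), are written 5′ to 3′ on the gene's strand, and have the cores in capitals. The Hif1a window is on the plus strand at chr12:73907617-73907866, inside the span of the gene (73901324 to 73947554), which has a further start upstream. The Egln1 window is on the minus strand at chr8:124949255-124949504, and that of Egln3 on the minus strand at chr12:54203875-54204124, both just upstream of the annotated gene.
Hif1a: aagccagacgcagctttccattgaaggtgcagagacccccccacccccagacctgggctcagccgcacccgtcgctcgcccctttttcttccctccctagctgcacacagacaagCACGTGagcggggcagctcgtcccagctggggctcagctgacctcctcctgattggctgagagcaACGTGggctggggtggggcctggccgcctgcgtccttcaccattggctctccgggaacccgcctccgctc
Egln1: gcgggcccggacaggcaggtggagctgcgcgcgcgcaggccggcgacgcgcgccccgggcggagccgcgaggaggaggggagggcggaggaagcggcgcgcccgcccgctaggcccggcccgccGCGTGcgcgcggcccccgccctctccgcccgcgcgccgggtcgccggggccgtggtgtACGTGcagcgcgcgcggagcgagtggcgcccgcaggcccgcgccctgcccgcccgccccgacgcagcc
Egln3: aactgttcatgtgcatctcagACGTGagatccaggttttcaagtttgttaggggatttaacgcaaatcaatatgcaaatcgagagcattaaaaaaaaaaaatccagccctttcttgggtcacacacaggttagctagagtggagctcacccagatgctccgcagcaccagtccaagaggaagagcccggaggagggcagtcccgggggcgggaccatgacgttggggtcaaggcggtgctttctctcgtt
In the Hif1a window, ACGTG on one strand overlaps ACGTG on the other to form the palindrome CACGTG, 135 bases before the start, and a further ACGTG lies at 70. Egln1 has GCGTG at 126 and ACGTG at 68, and Egln3 has ACGTG at 229. Of the 10 windows of 9 of these genes (Egln2 has 2), 8 held a core, as did 38.6% of all 32851 windows. The Hif1a window is 66.4% G or C, that of Egln1 86.0% and that of Egln3 50.8%, and the 10 windows run from 48.0% to 86.0%. The median of all windows was 52.4% and of windows with a core 58.8%. The share of 38.6% was not matched for this content. The windows of Vhl and Hif1an held none, and Epas1 had no window. Such a match describes letters and is not a binding site.

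Signals are MAS5 signals, the brightness of a probe set on a linear scale, and the 2 arrays had the same trimmed mean of 150. A floor was set at a signal of 19.7, the 40th percentile of both arrays pooled, under which a value can be noise. The ratio is the log2 signal of the knockout-labelled array minus that of the control array. With 1 array per group there was no test, and each value describes these 2 RNA pools and not the genotypes. The only error that could be had came from genes with several probe sets, whose log2 ratios scattered with an SD of 0.64, or 0.91 for the difference between 2 ratios (2660 genes). It leaves out the spread between animals, pools and arrays. For 44.2% of those genes the 2 brightest probe sets differed in sign. The arrays also differed in the 3′ over 5′ signal of b-actin, which was 2.27 for the controls and 16.0 for the knockout-labelled pool. In the same order, that of Gapdh was 1.49 and 7.25, and that of 18S RNA 0.449 and 1.29. That of pyruvate carboxylase, with a signal at the floor, was 4.22 and 3.12. These differences lie along the genotype labels, and their part in the values below was not tested. In RNA of a whole cell pool, fewer cells of a type and less RNA per cell cannot be told apart.

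**Figure D1:**
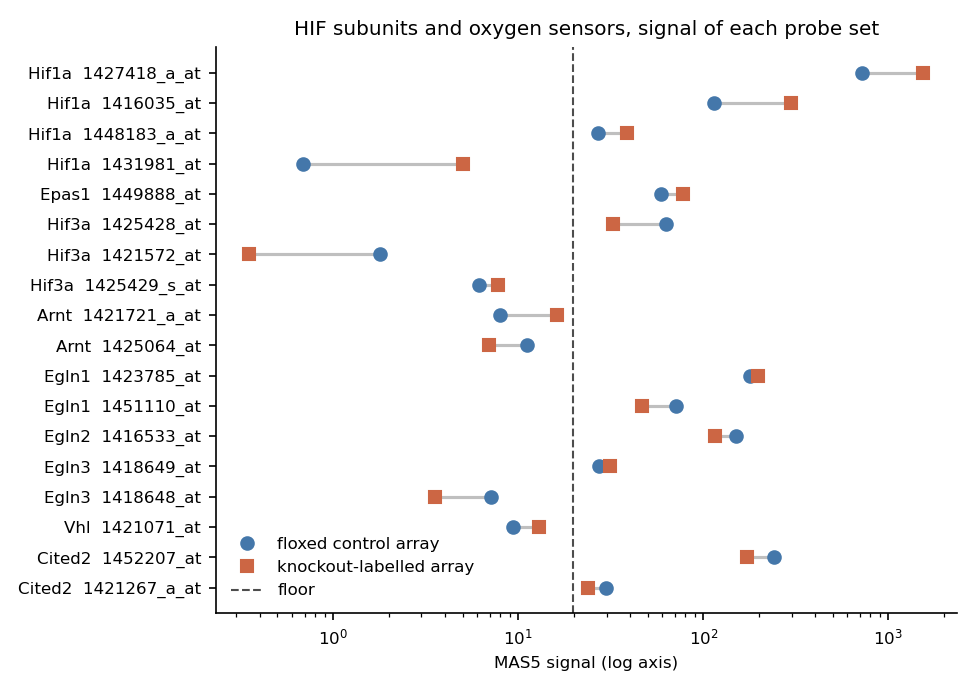
MAS5 signal (log axis) of each of the 18 probe sets on the floxed control array (circles) and the knockout-labelled array (squares), with the floor of 19.7 as a dashed line. The 3 Hif1a probe sets above the floor are all higher on the knockout-labelled array, and both Arnt probe sets and that of Vhl lie under the floor.

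Hif1a, Epas1 and Rac1, the genes that the labels name, all kept signals above the floor on the knockout-labelled array. Hif1a, the oxygen-regulated subunit of HIF-1, was brighter there at every measured probe set. Epas1 was also brighter, by less than the spread between probe sets. Rac1, a small GTPase of the cytoskeleton, was dimmer, with signals of 1038 and 757 (log2 ratio -0.46) and of 664 and 332 (2.00-fold lower) on the control and knockout-labelled arrays, and its remaining probe set was under the floor. The location of the probes with respect to the deleted exons was not analysed here, and probes that lie beyond the deletion cannot check the genotype.

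Hif1a has 4 probe sets. The brightest, 1427418_a_at, gave 721 for the controls and 1544 for the knockout-labelled pool. The latter was 2.14-fold the former, a log2 ratio of 1.10 ± 0.64 (SD between probe sets). Probe set 1416035_at had 114 and 297, which is 2.60-fold and a log2 ratio of 1.38, higher than 97.5% of the 11778 probe sets measured on both arrays. Probe set 1448183_a_at, close to the floor, had 27.0 and 38.7, a log2 ratio of 0.52. All 3 measured probe sets were thus higher on the knockout-labelled array, with a mean log2 ratio of 1.00 ± 0.44 (SD over 3 probe sets of the same 2 RNA pools). Their pairwise differences ran from 0.28 to 0.86, under the SD of 0.91 for such differences. The last, 1431981_at, was under the floor on both arrays (0.688 and 5.00) and gives no ratio. The genes whose brightest probe sets lay nearest to that of Hif1a in both signals were Ccm2 (706 and 1523), Lamtor1 (741 and 1535) and Tspan13 (770 and 1493), a likeness over 2 arrays alone.

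The size of the Hif1a difference depended on the scaling and its direction did not. Bright probe sets tended to have higher ratios on these arrays, and at the signal of 1427418_a_at the trend over all probe sets stood at 0.19. With the trend removed its ratio was 0.91, and it was 0.99 after quantile normalization, both just under 2-fold. Probe set 1416035_at stayed past 2-fold under all 6 other scalings, floors and pseudocounts, between 1.34 and 1.65. Its signals lie above the other floors, which left it at 1.38, and median centring moves every ratio upward on these arrays. Those settings could therefore not bring it under 2-fold.

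Epas1, which encodes HIF-2 alpha, a subunit abundant in endothelium, had 1 probe set, with signals of 59.4 and 78.1. The log2 ratio was 0.39 ± 0.64 (SD between probe sets), 1.31-fold. The ratio of Hif1a at its brightest probe set exceeded that of Epas1 by 0.70, less than the SD of 0.91 for a difference, so the paralogs were not separated. Of 14 endothelial markers, 10 were lower on the knockout-labelled array by any amount and 4 higher. Downward, 6 passed 2-fold, and upward none did, where 13.0% of all genes passed it downward and 6.21% upward. Of the 4 higher, Eng (0.83) and Sox17 (0.97) gave -1.85 and -1.40 at their other probe sets, and Flt1 (0.07) gave 0.80 and -0.43. The last of the 4, Plvap, had signals of 564 and 702 (0.32) and no other probe set. Over the 14 markers at their brightest probe sets, the median log2 ratio was -0.89 and the summed signals were 5005 and 3864. Their part in the Epas1 value was not tested.

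Hif3a encodes an alpha subunit of which some forms counteract the other HIFs. Its probe set 1425428_at had signals of 62.8 and 32.6, 1.93-fold lower in the knockout-labelled pool (log2 ratio -0.95 ± 0.64, SD between probe sets), the lowest ratio among the measured probe sets of these genes. Its other probe sets were under the floor on both arrays, 1421572_at at 1.79 and 0.352 and 1425429_s_at at 6.17 and 7.77, and the latter shares a source sequence with the measured one in the platform annotation. The ratio of Hif3a lay 2.04 under that of Hif1a and 1.34 under that of Epas1, both more than the SD of 0.91. Hif3a thus rests on 1 measured probe set, and with a floor at the 60th percentile it was not measured at all.

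Arnt, the shared beta subunit, could not be measured. Its probe set 1421721_a_at had signals of 7.98 and 16.2 and 1425064_at had 11.1 and 6.95. All 4 values lie under the floor and they go opposite ways. With a floor at the 25th percentile, the former alone would pass 2-fold as higher. Low signal at these probe sets does not show that Arnt is off.

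**Figure D2:**
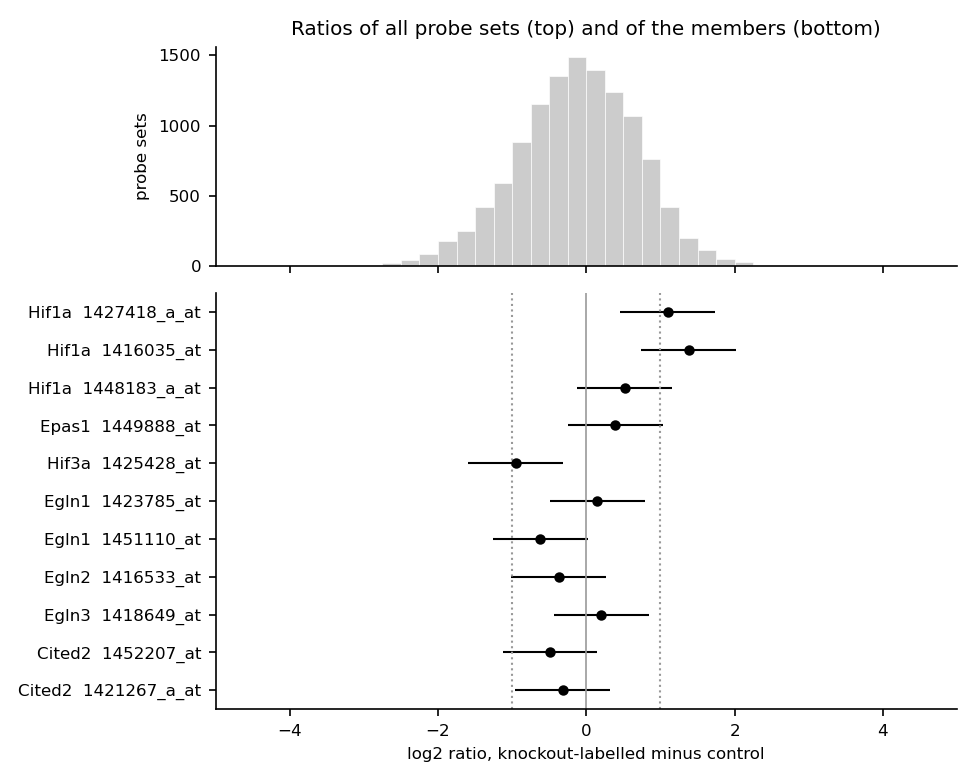
Top, number of probe sets by log2 ratio (knockout-labelled minus control) over the 11778 probe sets measured on both arrays. Bottom, the 11 measured probe sets of the HIF subunits and oxygen sensors, with bars of 1 SD (0.64) between probe sets of a gene and dotted lines at 2-fold. Only 2 Hif1a probe sets lie past 2-fold, and of the other bars all but that of Hif3a cross 0.

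The prolyl hydroxylases differed little between the arrays. Egln1 (PHD2), regarded as the main HIF prolyl hydroxylase, had signals of 178 and 197 at 1423785_at, a log2 ratio of 0.15, and of 71.5 and 46.6 at 1451110_at, a log2 ratio of -0.62. These probe sets share a source sequence in the platform annotation and gave opposite directions, so that of Egln1 was not settled. Their difference of 0.77 was larger than that of 57.3% of the 2660 genes with such a pair, near the middle for these arrays. Egln2 (PHD1) had 1 probe set, with signals of 150 and 116 (log2 ratio -0.37). Egln3 (PHD3), known for its strong induction by hypoxia, had 27.3 and 31.5 at 1418649_at, near the floor (log2 ratio 0.20), and 7.14 and 3.54 at 1418648_at, under it. The differences in ratio among the 3 hydroxylases at their brightest probe sets were 0.05 to 0.58 in size, all under the SD of 0.91.

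The remaining genes act after hydroxylation or beside it. Vhl, which binds the hydroxylated alpha subunit, had 1 probe set under the floor on both arrays (9.41 and 13.0), and gives no ratio. Cited2 was dimmer on the knockout-labelled array at both probe sets, with 242 and 173 at 1452207_at (log2 ratio -0.49) and 29.7 and 23.9 at 1421267_a_at (-0.32). Its pair differed by 0.17, less than the pairs of most genes, but each ratio was smaller than the SD of 0.64.

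Of 18 probe sets, 11 were measured on both arrays, 6 of them higher and 5 lower on the knockout-labelled array, and 7 were under the floor on both. Counted by gene at its brightest probe set, 7 were compared, of which Hif1a alone was at least 2-fold higher and none at least 2-fold lower. Over all 8593 genes compared, 6.21% passed 2-fold upward and 13.0% downward, so 1 of 7 is near the background. By probe set, 2 of the 11 were at least 2-fold higher, both of Hif1a, and none lower, where 6.84% of all probe sets compared passed 2-fold upward and 13.9% downward. The median log2 ratio was 0.15 over the 7 genes and -0.10 over all genes, and with the median over probe sets in place of the brightest these became -0.24 and -0.17. Among all genes past 2-fold, the share that was higher was 32.3% as deposited, but 46.3% with quantile normalization, 63.1% with median centring and 43.7% with the trend removed. All 11 measured ratios kept their sign under quantile normalization, median centring and removal of the trend. They also kept it under the other floors and the pseudocount where these gave a ratio, but such steps cannot reverse a sign.

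**Figure D3:**
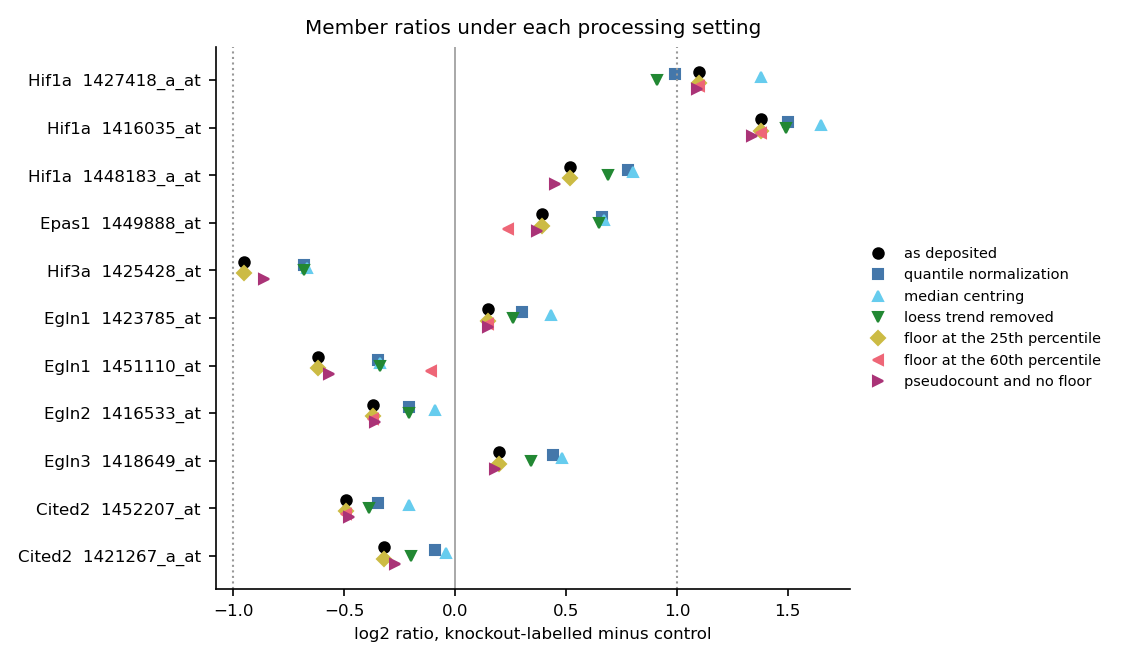
Log2 ratio (knockout-labelled minus control) of the 11 measured probe sets as deposited and under 6 other settings, 1 symbol per setting, with dotted lines at 2-fold. No probe set crosses 0, which the floors and the pseudocount could not bring about, and Hif1a at 1427418_a_at moves between 0.91 and 1.38.

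Other genes of the pathway were taken as lists, and the share of all genes past 2-fold in either direction, 19.2%, is the background for each. The closest relatives of the HIF subunits are the other proteins with a basic helix-loop-helix and a PAS domain, listed here with the period genes, which have PAS domains only. Of 15, 7 were compared, 2 passed 2-fold upward and 1 downward, and 6 were under the floor, Arnt2 among them. Clock, a subunit of the circadian activator, had signals of 59.0 and 161 (log2 ratio 1.45, and 1.28 at its other probe set), and Ahr, the dioxin receptor and another partner of ARNT, had 231 and 491 (1.09). Per2 had 71.7 and 34.3 (-1.06), a ratio that shrank to -0.11 with the floor at the 60th percentile.

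Subunits and regulators of the pVHL ubiquitin ligase and of HIF stability went both ways. Of 24, 17 were compared, 1 passed 2-fold upward and 2 downward (17.6%, median log2 ratio 0.15). Stub1, a ubiquitin ligase that works with chaperones, had signals of 454 and 105 (log2 ratio -2.12, and -1.49 at its other probe set). Nedd8, the modifier that activates cullins, had 825 and 268 (-1.62). Hsp90aa1, the chaperone that holds HIF-1 alpha, had 1251 and 2735 (1.13, with 0.47 and 0.97 at others), and came under 2-fold after quantile normalization or removal of the trend. The core subunit Cul2, chosen after its value was seen, was at 0.31. Of the subunits Elob and Eloc, also chosen so, Elob was at 0.72 but gave -0.81 at its other probe set. Eloc was at 0.27 and gave 1.30, 0.47 and 0.23 at others.

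Transcriptional partners of HIF had 10 of 14 compared, 1 past 2-fold upward and 1 downward (median -0.25). Ruvbl2, a chromatin ATPase subunit, had signals of 132 and 56.9 (log2 ratio -1.22). Apex1, a redox and DNA repair protein, had 442 and 885 (1.00) but gave 0.25 and -0.96 at other probe sets, so its direction was not settled. The coactivator Crebbp, chosen after its value was seen, was at -0.28.

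Other enzymes that, like the EGLN proteins, use oxygen and 2-oxoglutarate had 22 of 32 compared, none past 2-fold upward and 4 downward (18.2%, median -0.17). All 4 modify collagen. Plod1, a lysyl hydroxylase, had signals of 250 and 59.3 (log2 ratio -2.07), and Plod3, of the same family, had 155 and 64.9 (-1.25). The prolyl 4-hydroxylase subunit P4ha2 had 472 and 199 (-1.24), and P4ha1 had 228 and 98.4 (-1.21, and -0.69 at its other probe set). Of these, Plod1 alone stayed past 2-fold under all scalings, since median centring brought the other 3 to between -0.97 and -0.94. Plod2, chosen after its value was seen, went the other way (0.64 and 0.48).

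Genes known as HIF targets had 24 of 30 compared, 1 past 2-fold upward and 4 downward (20.8%, median -0.24), a share near the background. Adm, the vasodilator adrenomedullin, had signals of 272 and 88.5 (log2 ratio -1.62), and the growth factor Pdgfb had 63.8 and 21.2 (-1.59), beside P4ha2 and P4ha1, which stand in both lists. The 1 higher gene, named after its value was seen, was the glucose transporter Slc2a1, with 487 and 1026 (1.07) and with 0.76 and -0.69 at its other probe sets. Car9, a carbonic anhydrase, was under the floor on both arrays.

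**Figure D4:**
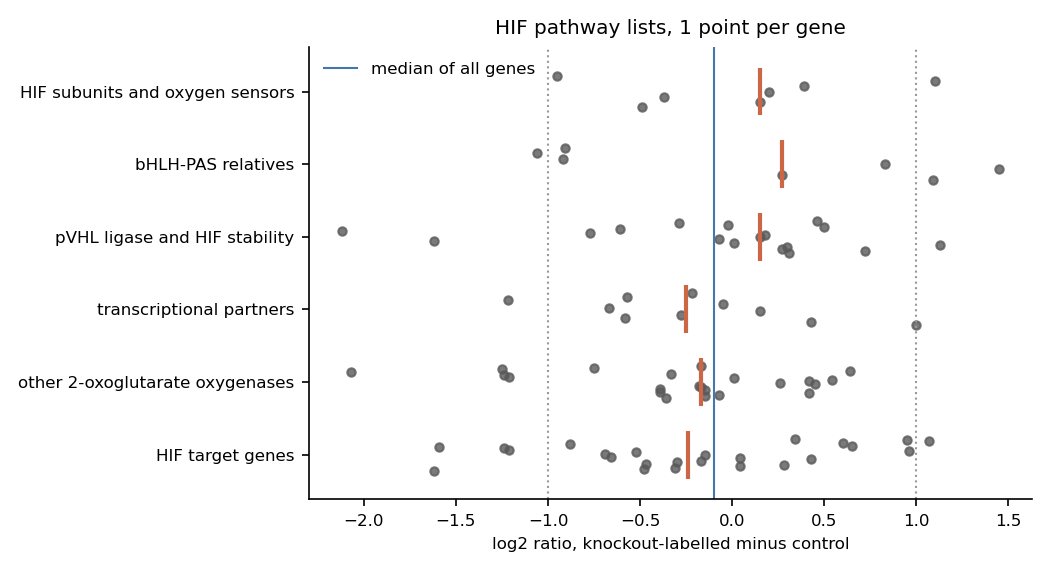
Log2 ratio (knockout-labelled minus control) of each compared gene at its brightest probe set, by list, with the median of each list as a thick bar, the median of all 8593 genes (-0.10) as a line and dotted lines at 2-fold. The list medians lie between -0.25 and 0.27, and each list has genes on both sides of 0.

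The labelled cell type was checked against its markers. All 15 stromal markers were above the floor on at least 1 array, with Vim, Dcn, Col1a2 and Col3a1 among the bright ones, and Esr1 and Hand2 near the floor. At their brightest probe sets the summed signals were 32472 (control) and 44480 (knockout-labelled), with 1 of 15 at least 2-fold lower, Hoxa11. Other probe sets disagreed for some. Pdgfra (2215 and 2212) gave a log2 ratio of -1.70 at its other probe set, and Col1a1 (0.59) gave -1.26. Vim (0.66) gave 0.26 and -0.58, and Nr2f2 (-0.54) gave 0.81 and 0.70. Markers of other cells were present too, and some of them differed by at least 2-fold along the labels, in both directions. At least 2-fold lower were 6 of 10 myeloid markers (2 were higher), 4 of 10 of smooth muscle and pericytes (none higher), 3 of 10 of epithelium compared (1 higher) and 3 of 5 of lymphocytes and NK cells compared (1 higher), beside the 13.0% lower and 6.21% higher of all genes. The median log2 ratios were -1.46 for myeloid markers, -0.90 for smooth muscle and pericytes, -0.04 for epithelium and -1.27 for lymphocytes and NK cells. Their summed signals were 4038 and 3540, 13071 and 13767, 2421 and 2006, and 498 and 434, on the control and knockout-labelled arrays in that order. Of the 2 higher myeloid markers, C1qb had 337 and 1008 (log2 ratio 1.58) but gave 0.54 and -2.68 at other probe sets. Its direction was thus not settled. The other, Ptprc, had 164 and 545 (1.74). Among the smooth muscle and pericyte markers, Myh11 (-0.78) gave 1.21 at its other probe set and Pdgfrb (0.46) gave -2.09. Rgs5 (0.57) gave 0.62, -0.42 and -0.76. The defining markers Krt19, Wnt7a and Cd3e were under the floor on both arrays. The part of these cells in the values of the HIF genes was not tested.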

How the data were processed

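RNA of 2 pools of uterine stromal cells was measured on 2 one-colour arrays. The deposited values are intensities, 1 MAS5 signal per probe set on a linear scale, made by the authors with MAS5 in Affymetrix Expression Console version 1, per the submitters' processing notes. No source used here gives the target of the scaling. Detection calls were not used.

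Groups came from the sample titles, and probe sets were named from the platform annotation with symbols updated through Entrez identifiers (RefSeq, GRCm38.p6, 20351 of 20380 probe sets with 1 symbol). Probe sets with several symbols (691) or none (1555) and 64 control probe sets entered no gene result. Signals were raised to the floor (the 40th percentile), then put on a log2 scale. A gene in a count or list stands at its probe set of highest mean log2 signal, and genes under the floor on both arrays (3800) were left out. A size rule of 2-fold was used, as 1 array per group allows no test. The number of arrays limits the precision.

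All genes in the opening list were named at every probe set, as was Rac1. Of each pathway list, up to 4 genes with the largest ratio past 2-fold were named, and the 3 genes nearest to Hif1a in both signals. The genes and lists were chosen with earlier results of these data known. The alternatives, 10 in number, were quantile normalization, median centring, removal of a loess trend (span 0.4), floors at the 25th and 60th percentiles, a pseudocount of 4.70, the median over probe sets, no _s_at and _x_at probe sets, and size rules of 1.5-fold and 3-fold. The size rule was tested on simulated data. Their scatter between probe sets was smaller than on these arrays, so they do not show how the rule performs here. Python 3.11.15 and statsmodels 0.14.6 were used.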

Additional observations from a re-analysis of the deposited data

How the results depend on the processing

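No paired analysis was possible because each group has 1 array, and for the same reason no array could be left out. Of the 62 alternative values of single probe sets, all kept their direction and moved by less than the SD of 0.64. Those from other floors and the pseudocount could not have changed direction. The floor at the 25th percentile left every ratio as it was, since all these signals lie above the main floor. Median centring moved all ratios by the same amount, set by the medians of the arrays. Under these settings the small moves were thus fixed beforehand. The median log2 ratio of the HIF and oxygen-sensing genes lay between -0.24 (median over probe sets) and 0.43 (median centring), while that of all genes moved from -0.10 to 0.16 with median centring. The number of these genes at least 2-fold higher was 1 as deposited, 0 after quantile normalization or trend removal and 0 with a size rule of 3-fold, and 2 with a floor at the 25th percentile, where Arnt entered. With a rule of 1.5-fold, 1 gene, Hif3a, was lower.

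Over all genes, 534 were higher and 1119 lower as deposited. Median centring gave 1146 and 670, a rule of 1.5-fold 1592 and 2268, and a rule of 3-fold 106 and 330, and a floor at the 60th percentile gave 601 lower. Among the pathway lists, where most counts are of 0 to 4 genes, a shift by 1 gene is a large share. The count of bHLH-PAS relatives lower became 0 under quantile normalization, median centring, trend removal, a floor at the 60th percentile, the pseudocount or a 3-fold rule, and 3 at 1.5-fold. At 3-fold the higher count became 0 too. For the pVHL and stability list, the higher count became 0 under quantile normalization, trend removal, the median over probe sets or a 3-fold rule, and at 1.5-fold the counts were 2 higher and 4 lower. For transcriptional partners, the higher count became 0 under quantile normalization, trend removal, the pseudocount, the median over probe sets, no _s_at and _x_at probe sets, or 3-fold. Their lower count became 0 under median centring, trend removal, a floor at the 60th percentile or 3-fold, and 2 with a floor at the 25th percentile or at 1.5-fold. For the other oxygenases, the lower count became 1 under median centring or 3-fold, and the higher count became 2 with a floor at the 25th percentile and 1 at 1.5-fold. For HIF targets, the higher count was 2 under quantile normalization, 3 under median centring, 5 at 1.5-fold and 0 under the median over probe sets or 3-fold, and the lower count was 2 under median centring or 3-fold and 7 at 1.5-fold. Beyond what the construction of an alternative shows, the cause was not tested. A low signal over background limits Hif3a, Egln3, Epas1 and the dimmer probe sets most.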

Other observations

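The PAS-domain genes of the circadian clock, the daily feedback loop in which CLOCK or NPAS2 with ARNTL (BMAL1) drives the period and cryptochrome genes, were set side by side after their values were seen. The activators had higher signals on the knockout-labelled array, with 59.0 and 161 for Clock (log2 ratio 1.45), 22.0 and 39.2 for Npas2 (0.83) and 64.3 and 77.5 for Arntl (0.27). All 3 period genes had lower signals there, with 171 and 90.4 for Per1 (-0.92), 71.7 and 34.3 for Per2 (-1.06) and 85.8 and 45.6 for Per3 (-0.91). Each kept its sign under the 6 other scalings, floors and pseudocounts, of which the floors and pseudocounts cannot reverse a sign. Npas2 had only 5, being under the floor on both arrays with the floor at the 60th percentile. The ratio of Arntl was smaller than the SD of 0.64 between probe sets. Across these settings, the ratio of Per2 shrank to as little as -0.11 and that of Per3 to -0.37. The further probe sets of Npas2, Per2 and Per3 were under the floor on both arrays.

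Other clock genes, also chosen after these values were seen, went both ways. Cry2, a repressor of the loop, had signals of 59.3 and 23.0 (-1.37), and Nfil3, a repressor of clock output, had 481 and 230 (-1.06). The output factor Tef had 243 and 125 (-0.95, and -0.63 at its next probe set). Dbp, another output factor, had 405 and 313 (-0.37) at the brighter of its probe sets and 96.7 and 23.3 (-2.05) at the dimmer. Nr1d1, a nuclear receptor of the second loop, had 31.5 on the control array and was under the floor on the other, so it was at least 1.60-fold lower. Its relative Nr1d2 had 329 and 621 (0.92), and Cry1 had 56.0 and 81.0 (0.53). Rora, an activator of the second loop, had 46.3 and 49.3 (0.09), and the output factor Hlf had 30.0 and 21.9 (-0.45, and -0.04 at its other probe set). Bhlhe41 was under the floor on both arrays. The hour at which the mice were killed was not stated in the labels, and its part in these values was not tested.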
